A study of Mus musculus with 65 samples.

Results

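The 34 genes described here encode the subunits of voltage-gated sodium and calcium channels. They were taken from the 49670 genes of the count table by symbol and level. A member has a mouse symbol that starts with Cacn, or with Scn followed by a number and a or b, and a level of at least 1 CPM (counts scaled to a common library total) in 3 or more of 65 libraries. Of 40 genes with such symbols, 6 stayed below that level: Cacna1f, Cacng1, Cacng6, Scn4a, Scn10a and Scn11a. Just outside, Scn11a reached at most 0.692 CPM, and just inside, Cacna1s held 1 CPM or more in 6 libraries and Scn9a in 57. Of those 6 libraries 4 are the wild type cerebellum libraries, so Cacna1s is a member only through that group. Its levels there against other groups are given as a description, with no p-value. Counts of members called still include it where it passed, as a description. The members comprise 7 of 10 sodium channel alpha genes, 4 of 4 sodium channel beta genes and 9 of 10 calcium channel alpha1 genes. They further comprise 4 of 4 alpha2delta, 4 of 4 beta and 6 of 8 gamma genes of calcium channels. Each of the 34 entered every test.

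Sodium channel alpha subunits form the pore that carries the upstroke of the action potential, and beta subunits tune its gating and anchor it at the axon initial segment and the node of Ranvier. Calcium channel alpha1 subunits form the pore that admits calcium on depolarization, while alpha2delta and beta subunits carry it to the membrane and set its kinetics. Most gamma genes expressed in brain encode TARPs, which escort AMPA-type glutamate receptors to the synapse. In the cerebellum the P/Q-type channel encoded by Cacna1a and the T-type channel encoded by Cacna1g are known for their part in Purkinje cell firing, and repeat expansions in Cacna1a cause another spinocerebellar ataxia.

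RNA was sequenced from dissected cerebellum, medulla and pons of C57BL/6J mice that were wild type or carried the Atxn1[82Q] knockin allele, a model of spinocerebellar ataxia type 1. Wild type mice had received vehicle without antisense oligonucleotide, and knockin mice either the same vehicle or an oligonucleotide (ASO) antisense to Atxn1. Each of the 3 groups was read in 4 libraries of cerebellum (18 weeks) and 4 of pons (28 weeks). Medulla and pons at the earlier age were read in 3 per group. Medulla at 28 weeks had 8 wild type, 8 knockin vehicle and 7 knockin ASO libraries in 2 labelled batches. The labels do not say whether libraries came from separate mice, so p-values measure the spread between libraries, which may be technical. The labels name no ASO dose or route.

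Libraries held 49.2M to 119.1M counts, with a median of 77.0M. The summed level of 12 Hox genes, which mark the hindbrain behind the cerebellum, was 0.295 to 2.13 CPM in cerebellum and 15.5 to 61.7 CPM in pons at 28 weeks. In medulla at 28 weeks 4 libraries held 32.4 to 40.9 CPM, within the range of pons, and the other libraries 117 CPM or more. These are wild type replicate 5, knockin vehicle replicate 8 and knockin ASO replicates 6 and 7, all of batch 2. Atxn1 went against the label at 18 weeks: medulla and pons libraries labelled wild type replicate 3 were at 15.3 and 16.5 CPM, and those labelled ASO replicate 2 at 39.0 and 51.0 CPM. At that age the other wild type libraries held 33.4 to 51.6 CPM and the other ASO libraries 13.5 to 24.1 CPM. At 28 weeks those labelled ASO replicate 2 were again high, at 49.4 CPM (medulla) and 51.0 CPM (pons), where the other ASO libraries ran from 25.0 to 35.7 CPM. In cerebellum Atxn1 was at 46.0 to 57.0 CPM in wild type, 57.5 to 64.6 CPM in knockin vehicle and 19.8 to 50.3 CPM in knockin ASO.

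Start regions are shown for the members whose level differed between knockin and wild type in cerebellum and for which the RefSeq table holds one, with a neighbour for comparison. Each is 300 bases on the gene's strand, 250 before and 50 after the start, on GRCm38.p6, and capitals mark the dinucleotide CG. Scn4b, a beta subunit that fell in knockin in every region at the later or only age, lies next to Scn2b, another beta subunit, on the plus strand of chromosome 9. Scn4b starts in a window rich in CG, and Scn2b does not.
Scn4b, chr9:45138374-45138673: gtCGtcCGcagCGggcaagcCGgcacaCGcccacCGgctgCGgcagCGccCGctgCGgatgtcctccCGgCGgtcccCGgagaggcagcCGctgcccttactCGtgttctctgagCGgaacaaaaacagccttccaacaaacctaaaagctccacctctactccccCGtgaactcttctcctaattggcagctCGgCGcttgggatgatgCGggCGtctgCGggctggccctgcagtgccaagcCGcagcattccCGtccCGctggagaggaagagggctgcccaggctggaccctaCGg
Scn2b, chr9:45117626-45117925: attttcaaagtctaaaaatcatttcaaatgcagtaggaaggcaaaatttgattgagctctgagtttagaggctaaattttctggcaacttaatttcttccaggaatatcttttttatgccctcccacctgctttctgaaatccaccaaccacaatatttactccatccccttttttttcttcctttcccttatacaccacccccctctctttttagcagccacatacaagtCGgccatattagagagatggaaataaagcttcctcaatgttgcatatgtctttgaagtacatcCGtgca
Cacng2, chr15:78119231-78119530, minus strand: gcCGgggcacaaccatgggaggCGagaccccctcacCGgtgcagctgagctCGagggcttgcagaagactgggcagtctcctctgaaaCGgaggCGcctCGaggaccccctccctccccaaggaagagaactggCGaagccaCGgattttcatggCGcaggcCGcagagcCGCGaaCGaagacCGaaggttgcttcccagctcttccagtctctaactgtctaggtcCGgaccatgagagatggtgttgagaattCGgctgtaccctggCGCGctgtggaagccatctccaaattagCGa
Cacna1s, chr1:136052561-136052860, plus strand: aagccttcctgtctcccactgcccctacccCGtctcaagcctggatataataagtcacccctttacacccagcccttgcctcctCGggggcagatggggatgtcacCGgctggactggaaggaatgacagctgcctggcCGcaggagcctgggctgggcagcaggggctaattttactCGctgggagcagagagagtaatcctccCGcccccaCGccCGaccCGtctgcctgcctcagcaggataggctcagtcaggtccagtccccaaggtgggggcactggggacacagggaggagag
The Scn4b window held 26 CG at 66.3% GC and the Scn2b window 2 CG at 38.3% GC. The Cacng2 window held 20 CG at 61.0% GC, and that of Cacna1s 9 CG at 63.0% GC. Windows were found for 25 members, 36 in all, with a median GC of 60.4% against 52.7% over all 32851 windows in the table.

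The windows were searched on both strands for the octamers bound by Capicua, the repressor with which ataxin-1 forms a complex, and for the half-site AGGTCA of nuclear receptors such as RORA. TGAATGAA was in 0 of the 36 member windows and in 1.3% of all windows. TGAATGGA was in 1 member window and in 1.21% of all windows. That window is the second start of Scn8a, the alpha subunit of the axon initial segment, and it is printed here with the octamer and the half-site in capitals.
Scn8a, chr15:100936021-100936320, plus strand: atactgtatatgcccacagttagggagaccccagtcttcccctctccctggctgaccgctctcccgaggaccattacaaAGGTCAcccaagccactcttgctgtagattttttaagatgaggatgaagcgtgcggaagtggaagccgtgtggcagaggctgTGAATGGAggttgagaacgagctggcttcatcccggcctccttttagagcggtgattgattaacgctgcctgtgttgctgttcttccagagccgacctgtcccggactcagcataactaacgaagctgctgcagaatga
AGGTCA was in windows of Cacng8, Scn1a and Scn8a and in 16.26% of all windows. Scn8a itself held 294, 270, 318 and 269 CPM in wild type cerebellum and 301, 264, 303 and 270 CPM in knockin vehicle. These libraries overlapped, and the log2 difference was -0.01 ± 0.11 (edgeR adjusted p = 0.99). In medulla and pons at 28 weeks the log2 difference of Scn8a was 0.08 ± 0.09 (adjusted p = 0.62) and -0.06 ± 0.05 (adjusted p = 0.52). Log2 differences are given with their standard error throughout.

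Regional levels were read in wild type at 18 weeks, as CPM per kilobase of exon so that genes can be set side by side. Sodium channel alpha genes were lower in cerebellum than in medulla for 6 of 7 and higher for 1 of 7. Calcium channel alpha1 genes went the other way, with 7 of 9 higher and 2 of 9 lower. In all, 16 of 34 members were higher in cerebellum than in medulla, against 29.3% of all genes tested, and 15 were lower, against 30.0%. The higher ones include Cacna1s, here and against pons. Against pons, 12 members were higher in cerebellum (27.6% of all genes) and 15 lower (28.4%). Without the libraries labelled wild type replicate 3, whose Atxn1 went against the label, 30 members were called against medulla and 26 against pons. In bulk tissue fewer cells of a type and less RNA per cell cannot be told apart. The median log2 difference over the members was -0.03 against medulla and -0.18 against pons, beside -0.01 and 0.0028 over all genes. Summed over a class, alpha1 genes held 101.0 ± 6.57 CPM per kb in cerebellum (SD, n = 4), 40.2 ± 2.71 in medulla and 50.1 ± 11.9 in pons (SD, n = 3 each). The summed sodium channel alpha level was 64.4 ± 5.23, 90.7 ± 14.7 and 79.5 ± 11.3 CPM per kb in the same order.

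Within wild type cerebellum Cacng7, a TARP, held 128.0 ± 4.19 and Scn2b 77.4 ± 6.23 CPM per kb. Among pore genes Cacna1a at 36.1 ± 3.38 and Cacna1g at 34.2 ± 1.94 CPM per kb led, and their libraries overlapped. In medulla Scn4b held 98.3 ± 12.5 CPM per kb. There Scn1a, the alpha subunit of fast-spiking neurons, was the highest pore gene at 46.7 ± 8.63 CPM per kb. In pons Scn4b was at 84.0 ± 48.9 CPM per kb, with 697 CPM in wild type replicate 2 and 246 and 312 CPM in the others.

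**Figure D1:**
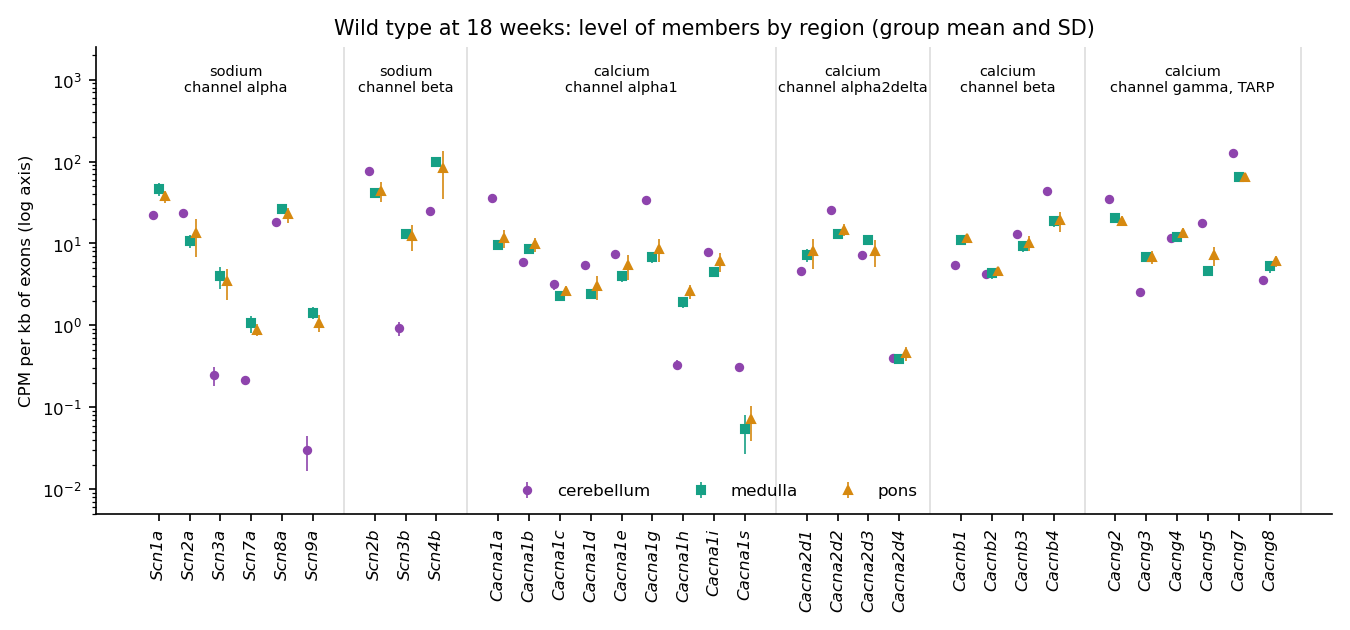
Level of members in wild type at 18 weeks (y axis, CPM per kb of exon, log scale) by gene and class (x axis), where points are group means and bars SD over 4 cerebellum, 3 medulla and 3 pons libraries. Scn3a, Scn9a, Scn3b and Cacna1h lie far lower in cerebellum, and Cacna1a, Cacna1g, Cacng5 and Cacna1s higher.

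The largest differences downward were in sodium channel genes. Scn9a, the alpha subunit known from pain-sensing neurons, held 0.542, 0.399, 0.136 and 0.477 CPM in cerebellum against 15.0, 21.0 and 18.4 CPM in medulla. All 4 cerebellum libraries lay far below, by 47.36-fold (log2 difference -5.57 ± 0.32, adjusted p = 9.4e-08), and against pons by 36.06-fold (-5.17 ± 0.32, adjusted p = 2e-07). Scn3a, an alpha subunit best known from the developing brain, held 4.24, 2.49, 2.68 and 2.92 CPM in cerebellum and 36.8, 66.8 and 45.5 CPM in medulla. The groups did not overlap, at log2 differences of -4.04 ± 0.36 against medulla (adjusted p = 1.1e-05) and -3.84 ± 0.35 against pons (1.8e-05). Scn3b, the beta3 subunit, was at 5.93, 4.27, 4.19 and 5.87 CPM in cerebellum and at 62.8, 79.3 and 68.7 CPM in medulla (-3.82 ± 0.25, adjusted p = 7.5e-07). Reads of Scn9a cannot be separated with certainty from those of Gm13629, which shares 180 exon bases on the other strand and holds 1.0265 times its counts, since no source used here says whether strand was used when reads were counted.

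Of the alpha genes, 5 form a row on chromosome 2: Scn3a, Scn2a, Scn1a, Scn9a and Scn7a, between 65457118 and 66784914 on GRCm38. Within the row Scn2a alone was higher in cerebellum than in medulla (1.10 ± 0.28, adjusted p = 0.0078), and the other 4 were lower. Scn1a was at -1.10 ± 0.13 (adjusted p = 1.3e-05) and Scn7a at -2.34 ± 0.18 (2.8e-07). With the number that ends the column names as a block, the log2 difference of Scn3a was -4.17 against medulla and -3.94 against pons. Among wild type cerebellum libraries only replicate 3 shares its number with medulla and pons libraries. The block thus rests the comparison on that library alone, and it cannot decide any of the regional calls.

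Upward, Cacna1s, the pore of the L-type channel best known from skeletal muscle, held 2.01, 1.84, 2.18 and 2.16 CPM in cerebellum and 0.369, 0.520 and 0.166 CPM in medulla. The level was 5.71-fold that in medulla and 4.24-fold that in pons, and the rule that chose the members used it. Cacna1g, the T-type pore of Purkinje cells and deep nuclei, was at 338, 323, 365 and 361 CPM in cerebellum and at 60.3, 67.2 and 79.5 CPM in medulla (2.30 ± 0.18, adjusted p = 5.9e-07). Cacng5, a TARP, was at 70.0, 65.4, 70.6 and 66.2 CPM in cerebellum and at 17.4, 16.4 and 19.7 CPM in medulla (1.90 ± 0.14, adjusted p = 2.1e-07). Cacna1a was at 412, 378, 466 and 392 CPM in cerebellum and at 170, 128 and 105 CPM in pons (1.59 ± 0.14, adjusted p = 1.1e-06). Every cerebellum library exceeded every pons library for these 4 genes. Cacna1s shares 1309 of its exon bases with Gm37759 on the other strand, which held 0.0518 times its counts.

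Pons and medulla were compared in the same libraries, and 0 of 34 members were called, against 0.833% of all genes. At an unadjusted p under 0.05 there were 3 members, and DESeq2 called 1. Cacng5 had the smallest p, at 35.8, 22.8 and 24.1 CPM in pons (0.63 ± 0.14, adjusted p = 0.065), followed by Cacna1i, a T-type pore (0.46 ± 0.15, adjusted p = 0.19). In wild type libraries of 28 weeks, with 4 pons and 8 medulla libraries, 12 members were higher in pons (5.27% of all genes) and 1 was lower (5.6%). Cacna2d1 led at 0.41 ± 0.07 (adjusted p = 0.0072), and Cacna2d3 was the lower member at -0.36 ± 0.07 (adjusted p = 0.012). The medulla libraries there include the one low in Hox genes, and that fit has no term for batch or for the number in the column names that medulla and pons libraries share.

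In cerebellum, vehicle-treated knockin libraries were set against wild type at 18 weeks. Of the 34 members 4 fell, against 2.06% of all genes tested, and 0 rose, against 0.654%. They were the TARP Cacng2 (stargazin), the T-type pore Cacna1g, the beta4 subunit Scn4b and the L-type pore Cacna1s. The wild type level of Cacna1s here made it a member, so its place in the count is not independent of the rule that chose the members. By class this is 2 of 9 alpha1, 1 of 6 gamma and 1 of 4 sodium channel beta genes, and 0 of the 7 sodium channel alpha, 4 alpha2delta and 4 beta genes. The members' median log2 difference was 0.01, as over all genes, 15 members had an unadjusted p under 0.05, and DESeq2 called 9.

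Cacna1s held 2.01, 1.84, 2.18 and 2.16 CPM in wild type cerebellum and 0.886, 0.753, 0.641 and 0.452 CPM in knockin vehicle. Every knockin library lay below every wild type library, by 2.98-fold. Cacng2, which carries AMPA receptors to synapses, was at 194, 185, 197 and 191 CPM in wild type and at 158, 140, 161 and 142 CPM in knockin. It was 1.27-fold lower without overlap (-0.35 ± 0.08, adjusted p = 0.034). A730060N03Rik shares 323 of its exon bases on the other strand at 0.0186 times its counts.

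Cacna1g held 338, 323, 365 and 361 CPM in wild type cerebellum against 235, 202, 254 and 211 CPM in knockin vehicle. The groups did not overlap, at 1.53-fold (-0.61 ± 0.15, adjusted p = 0.044). Scn4b, the subunit tied to the resurgent sodium current of Purkinje cells, was at 127, 112, 129 and 135 CPM in wild type and 83.3, 75.4, 94.1 and 103 CPM in knockin. It too fell without overlap, 1.41-fold (-0.49 ± 0.12, adjusted p = 0.047). The summed level of 12 Purkinje cell markers was 9710 to 10800 CPM in wild type and 5550 to 6970 CPM in knockin vehicle, and 7 of the 12 fell. Marker sums of other cells were also lower without overlap: astrocytes at 5760 to 6470 and 4370 to 4560 CPM, cerebellar interneurons at 1480 to 1530 and 1140 to 1220 CPM, and granule cells at 5620 to 6200 and 4190 to 5460 CPM. Oligodendrocyte precursors were at 792 to 856 and 694 to 779 CPM. Of these lists, 2 of 10, 1 of 9, 2 of 12 and 0 of 10 genes fell. For skeletal muscle markers, listed beside Cacna1s, the sums were 2.81 to 3.43 and 2.18 to 2.66 CPM. The part of these markers in the members' levels was not tested.

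Of these calls, that of Cacng2 ended without ASO replicate 1, any wild type replicate or knockin vehicle replicate 1, 2 or 4 (adjusted p = 0.051 to 0.13). Cacna1g was not called without ASO replicate 2 or any wild type or knockin vehicle replicate (0.054 to 0.15). Scn4b was not called without ASO replicate 1 or 2, any wild type replicate or knockin vehicle replicate 1, 2 or 3 (0.057 to 0.15). With the replicate number as a block, Scn4b alone stayed called, and the adjusted p was 0.082 for Cacng2 and 0.11 for Cacna1g.

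One cerebellum library of the ASO group, outside this comparison but inside its estimate of the spread, stood apart. ASO replicate 3 was the lowest of its group for 25 of 33 members whose other libraries averaged over 1 CPM. Its median log2 ratio to the other 3 libraries was -0.77 for 18 members with more than 8000 bases of exon and -0.27 for 15 shorter members. Cacna1a was at 390, 397, 200 and 402 CPM across ASO replicates 1 to 4, and Cacna1d at 73.9, 74.1, 27.0 and 70.6 CPM. Such ranks and ratios were not computed over all genes, here or for the libraries named below. Whether they are particular to the members was not tested.

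**Figure D2:**
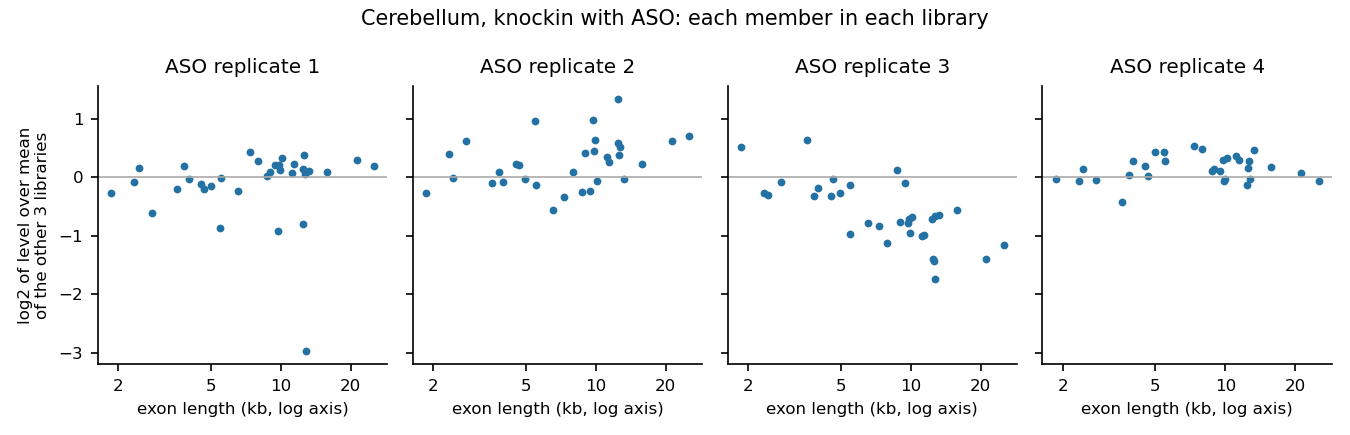
Each member in each cerebellum library of the knockin ASO group (y axis, log2 of the level over the mean of the other 3 libraries) against its exon length (x axis, kb, log scale), where 1 point is 1 member. In ASO replicate 3 the members with long exons lie low, with a median of -0.77 above 8000 bases and -0.27 below.

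Without ASO replicate 3, knockin vehicle against wild type in cerebellum gave 9 members lower (7.91% of all genes) and 5 higher (6.24%). The 4 calls above were among the lower ones. This fit was shown because it moved the count of calls most, and the library left out was low in these same members. The further members, lower or higher, are thus a description, not independent evidence of a change. Cacna2d2, the alpha2delta subunit of Purkinje cells, was then lower, from 203, 199, 219 and 196 CPM to 154, 131, 166 and 145 CPM (-0.45 ± 0.07, adjusted p = 0.0019). Cacnb2, a beta subunit, went from 55.9, 53.1, 59.2 and 55.8 CPM to 43.2, 35.5, 42.1 and 41.3 CPM (-0.46 ± 0.08, adjusted p = 0.0018). In both genes the groups did not overlap. The TARP genes Cacng5 and Cacng7 were also lower (adjusted p = 0.0066 and 0.0089).

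The higher members in that fit were Cacna2d1, Cacna1b, Cacna1e, Cacna1d and Cacna1c, an alpha2delta subunit and pores of N-, R- and L-type channels. Cacna2d1 went from 57.0, 54.3, 64.1 and 56.2 CPM in wild type to 88.3, 87.6, 76.3 and 90.5 CPM in knockin (0.57 ± 0.10, adjusted p = 0.0031). Cacna1b, the N-type pore, went from 60.9, 55.4, 63.7 and 57.9 to 87.0, 71.8, 79.6 and 80.1 CPM (0.42 ± 0.09, adjusted p = 0.0095). Cacna1e, the R-type pore, went from 184, 174, 217 and 182 to 265, 256, 261 and 235 CPM (0.43 ± 0.10, adjusted p = 0.018). All 3 rose without overlap. With all libraries the adjusted p was 0.076 for Cacna2d1, 0.3 for Cacna1b and 0.39 for Cacna1e at nearly the same log2 differences.

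In medulla at 28 weeks, the comparison with the most libraries, 9 members fell in knockin vehicle against wild type (9.99% of all genes) and 2 rose (9.28%). Among those that fell were Cacnb3, Scn4b, Cacna1i, Cacng3, Cacna1g, Cacng8 and Cacna1e, and those that rose were Cacna1d and Cacnb4. By class, 3 of 9 alpha1 genes fell and 1 rose, while 2 of 6 gamma genes fell. Of the 4 beta genes of calcium channels 1 fell and 1 rose, and 0 of 4 alpha2delta genes were called. The medians of the log2 differences were -0.07 over members and 0.01 over all genes. None of the 11 reached 1.5-fold. Knockin vehicle replicate 2 stood apart, being the lowest of its group for 23 of 33 members with a median log2 ratio of -0.36 to the others. Without it 12 members were called, 10 of them among the 11, and Cacna1e was not (adjusted p = 0.067). That library was singled out for its low levels of these same members, so the fit without it is a description. Its median log2 ratio was -0.47 for members with more than 8000 bases of exon and -0.29 for shorter ones.

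Cacnb3, the beta3 subunit of calcium channels, ranged over 40.7 to 59.3 CPM in wild type with a median of 50.5, and over 33.5 to 44.7 CPM in knockin with a median of 38.8. The groups overlapped at 1.29-fold (-0.37 ± 0.08, adjusted p = 0.0015). Scn4b ran from 374 through a median of 475 to 600 CPM in wild type and from 330 through 370 to 399 CPM in knockin. That is 1.30-fold lower, with the lowest wild type library inside the knockin range (-0.38 ± 0.08, adjusted p = 0.0017). For Cacna1i, a T-type pore, the lowest, median and highest were 38.3, 45.5 and 62.9 CPM in wild type and 30.3, 34.2 and 42.0 CPM in knockin (-0.39 ± 0.09, adjusted p = 0.0035). Cacna1g stood at 66.4, 83.8 and 102 CPM in wild type and 48.9, 61.9 and 83.2 CPM in knockin (-0.39 ± 0.11, adjusted p = 0.019). For both T-type pores every knockin library lay below the wild type median, though the groups overlapped.

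Cacng3, a TARP, had 16.9, 21.0 and 23.2 CPM as lowest, median and highest in wild type and 10.7, 16.4 and 20.2 CPM in knockin (-0.34 ± 0.08, adjusted p = 0.0047). Cacna1d, an L-type pore that paces neurons, rose from 22.4, 25.6 and 30.2 CPM to 27.5, 28.8 and 36.3 CPM (0.20 ± 0.06, adjusted p = 0.036). In both genes the groups overlapped. Cacnb4, the beta4 subunit of calcium channels, rose from 116, 144 and 175 CPM to 134, 170 and 182 CPM (0.21 ± 0.07, adjusted p = 0.038). Chdh shares 589 exon bases with Cacna1d on the other strand, and A430018G15Rik 1433 with Cacnb4, at 0.4756 and 0.0116 times their counts. Nearer the threshold lay Cacng8 at -0.21 ± 0.07 (adjusted p = 0.041) and Cacna1e at -0.25 ± 0.09 (0.046).

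In batch 1 alone, with 4 libraries in each group, Scn4b was the member called (-0.52, adjusted p = 0.013). There Cacnb3 was at -0.20 (adjusted p = 0.38), Cacna1i at -0.32 (0.097), Cacng3 at -0.38 (0.13), Cacna1g at -0.32 (0.37), and Cacnb4 at -0.0003 (1.0). In batch 2 alone Scn4b was at -0.26 (adjusted p = 0.07) and Cacna1i at -0.45 (0.051), while Cacnb3 was at -0.55 (0.00044) and called. Leaving out the 4 libraries low in Hox genes, all of batch 2, ended the calls of Cacna1d (adjusted p = 0.076), Cacnb4 (0.12), Cacng8 (0.071) and Cacna1e (0.085).

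The calls of Cacnb3, Scn4b, Cacna1i, Cacng3 and Cacna1g in medulla at 28 weeks held in each of 23 fits without 1 library. That of Cacna1d ended without knockin vehicle replicate 1, 5, 7 or 8 or wild type replicate 1, 3, 6, 7 or 8 (adjusted p = 0.052 to 0.093). That of Cacnb4 ended without knockin vehicle replicate 1 or 5 to 8 or wild type replicate 3 to 8 (0.053 to 0.09). Cacng8 lost its call without ASO replicate 2 or 5, knockin vehicle replicate 3, 5, 6 or 8, or wild type replicate 3, 4, 6, 7 or 8 (0.051 to 0.082). Cacna1e lost it without knockin vehicle replicate 2 to 5, 7 or 8, or wild type replicate 2 or 4 to 8 (0.054 to 0.086). With the replicate number as a block, Cacnb4 and Cacng8 were not called (0.083 and 0.056).

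In pons at 28 weeks 3 members fell in knockin vehicle against wild type (5.65% of all genes) and 0 rose (4.14%). An unadjusted p under 0.05 was found for 9, and DESeq2 called 8. Scn4b held 377, 474, 383 and 424 CPM in wild type and 234, 222, 194 and 286 CPM in knockin. Every knockin library was below every wild type library, 1.77-fold (-0.83 ± 0.15, adjusted p = 0.0079), and the call held in each of 12 fits without 1 library. Cacna2d3, an alpha2delta subunit, was at 62.6, 68.4, 61.7 and 58.1 CPM in wild type and 43.5, 40.8, 45.0 and 55.9 CPM in knockin (-0.44 ± 0.10, adjusted p = 0.016). Cacng2 was at 101, 99.2, 93.0 and 96.4 CPM in wild type and 86.4, 90.4, 88.0 and 85.8 CPM in knockin (-0.15 ± 0.04, adjusted p = 0.034). Neither gene's groups overlapped. Cacna2d3 lost its call without knockin vehicle replicate 1, 2 or 3 or wild type replicate 2 (0.052 to 0.055), and Cacng2 without knockin vehicle replicate 1, 2 or 3 or wild type replicate 1, 2 or 4 (0.057 to 0.098).

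Knockin vehicle replicate 4 of pons stood apart from the other 3, being the lowest of its group for 26 of 33 members with a median log2 ratio of -0.35. The median was -0.44 for members with more than 8000 bases of exon and -0.19 for shorter ones. Without that library, 7 members were higher (9.11% of all genes) and 4 lower (11.4%), with Scn4b, Cacna2d3 and Cacng2 again lower. The fit was shown because it moved the count of calls most, and the library left out was low in these same members. The higher members are thus a description, not independent evidence of a rise. With all libraries 0 rose. Cacna1b led the higher members (0.39 ± 0.06, adjusted p = 0.00052), followed by Cacna1d (0.44 ± 0.07, 0.0008), Cacna1a (0.25 ± 0.04, 0.0016) and Scn2a (0.40 ± 0.08, 0.0071). Cacna1h, Cacna1g and Cacnb3 were also higher (0.014, 0.024 and 0.044). Cacna1a held 142, 146 and 140 CPM in those 3 libraries, 104 CPM in replicate 4 and 113, 116, 120 and 128 CPM in wild type.

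Set side by side, Scn4b was lower in knockin vehicle in all 3 regions: -0.49 ± 0.12 in cerebellum at 18 weeks, -0.38 ± 0.08 in medulla and -0.83 ± 0.15 in pons at 28 weeks. Cacng2 was lower in cerebellum (-0.35 ± 0.08) and pons (-0.15 ± 0.04), and at -0.11 ± 0.05 in medulla (adjusted p = 0.19). Cacna1g was lower in cerebellum (-0.61 ± 0.15) and medulla (-0.39 ± 0.11), and at 0.10 ± 0.18 in pons (adjusted p = 0.77). Scn2b, the neighbour of Scn4b, was at -0.21 ± 0.09 (adjusted p = 0.3), -0.04 ± 0.06 (0.71) and 0.13 ± 0.06 (0.19). Medulla and pons libraries of the same age, arm and replicate share the number that ends their column names in 21 of 21 cases, so the 2 regions may not be separate mice.

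**Figure D3:**
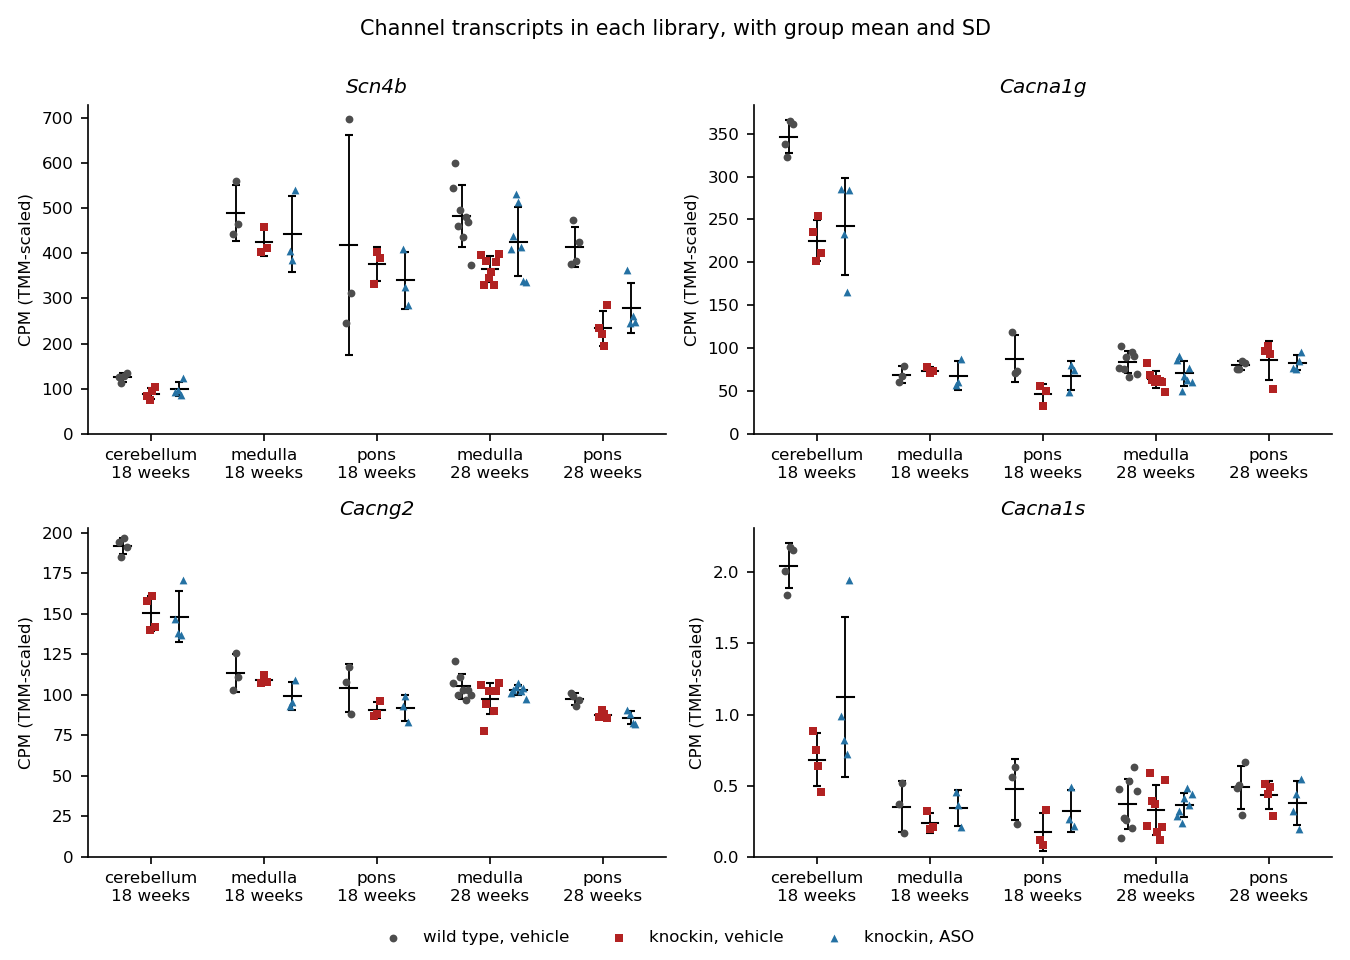
Scn4b, Cacna1g, Cacng2 and Cacna1s in every library (y axes, CPM) by region and age (x axes), where points are libraries and bars the group mean and SD. In pons at 28 weeks Scn4b lies at 194 to 286 CPM in knockin vehicle and at 377 to 474 CPM in wild type.

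Markers of several cell types moved with the knockin at 28 weeks. Astrocyte markers summed to 5300 to 6950 CPM in wild type medulla and 3450 to 4420 CPM in knockin vehicle, and 8 of 10 fell. In pons the sums were 4760 to 4970 and 2990 to 3470 CPM, and 6 of 10 fell. Mature oligodendrocyte markers fell for 8 of 10 in medulla and 6 of 10 in pons, and monoamine neuron markers for 7 of 8 and 6 of 8. Of 8 cholinergic motor neuron markers 6 fell in pons, where they summed to 155 to 245 CPM in wild type and 95.8 to 117 CPM in knockin. Of 10 markers common to neurons 3 fell in each region. The part of these markers in the members' differences was not tested.

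**Figure D4:**
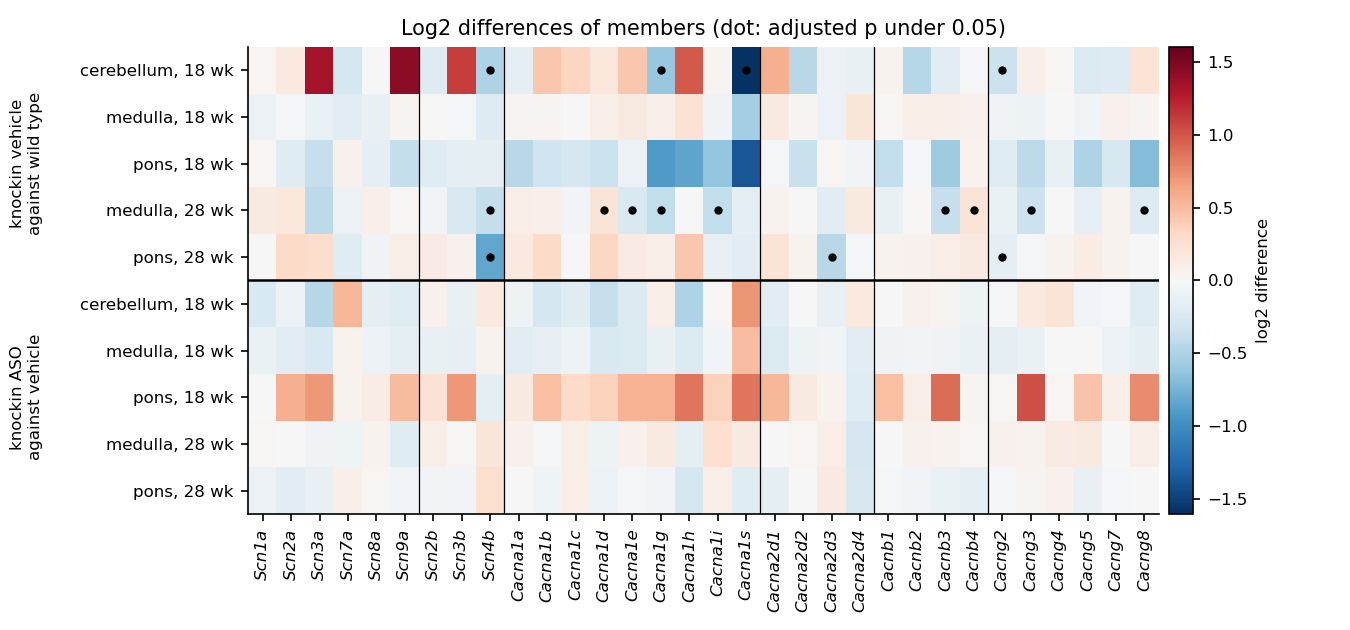
Log2 differences of members (columns, ordered by class) in knockin vehicle against wild type and in knockin ASO against vehicle (rows, by region and age), where colour is the log2 difference and dots mark an adjusted p under 0.05. Among the members shown, dots lie in the rows for cerebellum (4), medulla at 28 weeks (9) and pons at 28 weeks (3), and in none of the rows for ASO against vehicle.

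The ASO was compared with vehicle in knockin mice in each region and age, and 0 of 34 members were called in any. Of all genes 0.0491% were called in cerebellum, 1.69% in medulla at 28 weeks and 0.0929% in pons at 28 weeks, and 0.0% in medulla and in pons at 18 weeks. At an unadjusted p under 0.05 there were 2 members in cerebellum, 4 in medulla at 28 weeks, 1 in pons at 28 weeks, 2 in medulla at 18 weeks and 6 in pons at 18 weeks. DESeq2 called 0 in each. These comparisons share the knockin vehicle libraries with those against wild type, so their values are not independent of them. At 28 weeks the libraries labelled ASO replicate 2, whose Atxn1 was high, are in these fits and in those against wild type. Their Atxn1 lay above every knockin vehicle library of medulla and inside the vehicle range of pons. The counts of 0 at 28 weeks thus do not describe an ASO that lowered Atxn1 in every library.

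In cerebellum Cacna1s was at 0.993, 0.821, 0.724 and 1.95 CPM with ASO and overlapped vehicle (0.71 ± 0.30, adjusted p = 0.62). Scn4b was at 91.9, 97.8, 86.3 and 123 CPM with ASO, overlapping vehicle (0.16 ± 0.12, adjusted p = 0.67). In medulla at 28 weeks Cacna1i had the smallest p, with a lowest, median and highest of 39.0, 40.3 and 50.2 CPM with ASO against 30.3, 34.2 and 42.0 CPM with vehicle (0.27 ± 0.09, adjusted p = 0.17). Cacna2d4, an alpha2delta subunit best known from retina, was second at 2.91, 3.45 and 3.78 CPM against 3.34, 3.88 and 4.73 CPM (-0.27 ± 0.09, adjusted p = 0.2). In pons at 28 weeks Scn1a came first (-0.10 ± 0.04, adjusted p = 0.33) and Cacnb4 second (-0.15 ± 0.07, adjusted p = 0.35). Scn4b there held 362, 246, 262 and 247 CPM with ASO. Replicate 1 lay above the highest vehicle library and the other 3 within the vehicle range (0.26 ± 0.15, adjusted p = 0.45).

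Knockin with ASO was also set against wild type. In cerebellum 0 members were called, against 0.0% of all genes, with 11 at an unadjusted p under 0.05 and 3 called by DESeq2. Cacng2 held 147, 138, 137 and 171 CPM with ASO, below all wild type libraries (-0.37 ± 0.08, adjusted p = 0.17), and Cacng5 61.3, 58.1, 46.8 and 56.6 CPM (-0.28 ± 0.08, adjusted p = 0.22). In medulla at 28 weeks 2 members were lower (2.02% of all genes) and 0 higher (1.77%). Cacnb3, 1 of these, ranged over 32.3 to 48.9 CPM with a median of 37.8 and overlapped wild type (-0.32 ± 0.08, adjusted p = 0.026). Its call ended without the 4 libraries low in Hox genes (adjusted p = 0.12), in batch 1 alone (0.58) and with the replicate block (0.075). Cacnb3 was not called without ASO replicate 3, 4, 6 or 7 or wild type replicate 7 or 8 (0.05 to 0.059).

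In pons at 28 weeks 0 members were called with ASO against wild type, against 1.07% of all genes, with 6 at an unadjusted p under 0.05 and 2 called by DESeq2. Cacng2 held 90.5, 88.3, 82.6 and 82.1 CPM with ASO, below all wild type libraries (-0.18 ± 0.04, adjusted p = 0.052). Scn4b, at the values given above, was likewise below all wild type libraries (-0.57 ± 0.15, adjusted p = 0.084).

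At 18 weeks 0 members were called in medulla or pons in any comparison, against 0.0% of all genes in each, and DESeq2 called 0 members. For knockin vehicle against wild type there were 0 members at an unadjusted p under 0.05 in medulla and 5 in pons. The smallest p in medulla was that of Cacna1h, a T-type pore, at 19.4, 15.5 and 21.5 CPM in wild type and 22.0, 22.6 and 21.7 CPM in knockin (0.23 ± 0.13, adjusted p = 0.86). Scn4b was second, at 443, 560 and 466 CPM against 403, 458 and 411 CPM (-0.21 ± 0.12, adjusted p = 0.86). In pons Cacna1g was at 119, 70.6 and 72.8 CPM in wild type and 55.8, 32.7 and 49.5 CPM in knockin, without overlap (-0.91 ± 0.27, adjusted p = 0.41). Cacna1i was at 78.1, 55.6 and 48.0 CPM against 43.3, 30.2 and 42.7 CPM, also without overlap (-0.63 ± 0.20, adjusted p = 0.41).

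Pons libraries at 18 weeks varied widely within groups, and Scn4b ran from 246 to 697 CPM in wild type alone. Members were at a median log2 difference of -0.27 in knockin vehicle against wild type, with 30 of 34 negative, and at 0.37 for ASO against vehicle, with 30 of 34 positive, beside 0.0016 and -0.0022 over all genes. The library labelled wild type replicate 1 was the highest of its group for 21 of 33 members and knockin vehicle replicate 2 the lowest for 22 of 33. For ASO against vehicle in pons, Cacna1b (0.48 ± 0.18) and Cacnb3 (0.89 ± 0.34) had the smallest p, with adjusted p = 0.75 for each. In medulla they were Cacna1d (-0.25 ± 0.09) and Cacna1e (-0.23 ± 0.11), with adjusted p = 1.0. With ASO against wild type, the unadjusted p was under 0.05 for 2 members in medulla, Cacng2 and Scn8a, and for 1 in pons. Wild type replicate 3 and ASO replicate 2, whose Atxn1 went against the label, are in these fits, and without them 0 members were called as well. Leaving them out shrinks groups of 3 libraries further, where 0.0% of all genes were called with all libraries. That result thus cannot tell whether the labels matter.

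Whether the effect of the knockin differed between regions was tested directly. Between medulla and pons at 28 weeks 0 members were called, against 0.0184% of all genes, with 7 at an unadjusted p under 0.05 and 0 called by DESeq2. With the replicate number within each arm as a block, which is the number that the libraries of the 2 regions share, 0 were called as well, for this effect and for that of ASO. Cacnb3 had the smallest p, its effect being more negative in medulla by -0.47 ± 0.13 (adjusted p = 0.33), and Scn4b followed with the opposite sign (0.45 ± 0.16, adjusted p = 0.46). For the effect of ASO against vehicle 0 members were called (0.0% of all genes), 0 had an unadjusted p under 0.05 and DESeq2 called 0. There Cacnb4 (0.17 ± 0.12) and Scn2b (0.14 ± 0.09) had the smallest p, with adjusted p = 1.0.

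Between cerebellum at 18 weeks and medulla at 28 weeks, where region and age differ together, the knockin effect differed for 3 members. It was more positive in cerebellum for Scn3a and Scn3b (1.64% of all genes) and more negative for Cacng7 (1.28%). Scn3a held 4.24, 2.49, 2.68 and 2.92 CPM in wild type cerebellum and 6.96, 6.42, 4.14 and 13.5 CPM in knockin vehicle, while in medulla its median was 49.7 CPM in wild type and 39.6 CPM in knockin (difference of log2 effects 1.75 ± 0.41, adjusted p = 0.013). Scn3b held 5.93, 4.27, 4.19 and 5.87 CPM against 9.93, 9.15, 5.77 and 18.9 CPM in cerebellum, with medulla medians of 62.9 and 58.0 CPM (1.36 ± 0.33, adjusted p = 0.018). Within cerebellum the knockin effect on neither gene was called (adjusted p = 0.14 and 0.16). Cacng7 held 326, 303, 314 and 306 CPM against 280, 257, 279 and 258 CPM in cerebellum, without overlap, and medulla medians of 170 and 177 CPM (-0.27 ± 0.07, adjusted p = 0.031).

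**Figure D5:**
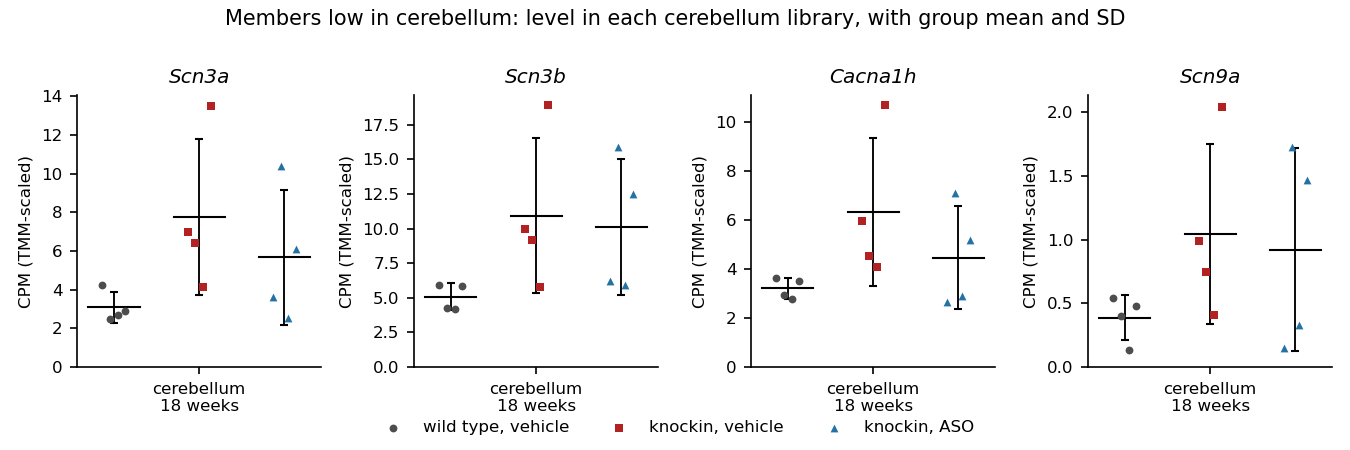
Members that are low in cerebellum, Scn3a, Scn3b, Cacna1h and Scn9a, in each cerebellum library at 18 weeks (y axes, CPM), where points are libraries and bars the group mean and SD. Knockin vehicle replicate 4 is the highest library for all 4 genes, at 13.5 CPM for Scn3a.

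Of the 15 members lower in cerebellum than in medulla, 4 were summed over the cerebellum libraries. Scn9a, Scn3a, Scn3b and Cacna1h came to 14.4, 10.1, 9.77 and 12.8 CPM in wild type, to 23.9, 20.9, 14.4 and 45.1 CPM in knockin vehicle and to 12.7, 35.1, 11.7 and 25.3 CPM in knockin ASO. Knockin vehicle replicate 4 and ASO replicate 2 held the most. Not all of the 15 followed: Scn7a was at 2.32, 1.56, 1.17 and 2.42 CPM across ASO replicates 1 to 4, so replicate 2 was not the highest, and Scn4b was lower in knockin vehicle. Without knockin vehicle replicate 4 the difference of effects was 1.36 for Scn3a (adjusted p = 0.078) and 0.97 for Scn3b (0.11), and 0 members were called. Scn3b also lost its call without wild type replicate 2 or 3 of cerebellum (0.055 and 0.053). Cacng7 lost it without knockin vehicle replicate 2 or 4 or any wild type replicate of cerebellum, or without knockin vehicle replicate 5 or 7 or wild type replicate 5, 6 or 8 of medulla (0.051 to 0.13). With the replicate number as a block the adjusted p was 0.13, 0.2 and 0.27 for Scn3a, Scn3b and Cacng7. Without the medulla libraries low in Hox genes it was 0.067 for Cacng7. The block pairs libraries of different ages that share no number in their column names. Medulla replicates 5 and higher have no partner in it, so it cannot decide these calls. Between cerebellum and pons at 28 weeks 0 members were called, against 1.23% of all genes, with 11 at an unadjusted p under 0.05 and 1 called by DESeq2. Cacnb2 (-0.53 ± 0.15, adjusted p = 0.099) and Cacna1g (-0.72 ± 0.23, adjusted p = 0.15) had the smallest p.

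Genes that work with these channels were read from 6 lists, in knockin vehicle against wild type. Over all genes 2.06% were lower and 0.654% higher in cerebellum, 9.99% and 9.28% in medulla, and 5.65% and 4.14% in pons. Of 17 sodium channel partners at the axon initial segment and node, 1 fell in cerebellum, 3 in medulla and 2 in pons at 28 weeks, and 0 rose. These are 5.88%, 17.6% and 11.8% of the list, at most 2 genes from the counts those shares give. Fgf11, a fibroblast growth factor homologous factor that binds the tail of sodium channels, was among them in each region: -0.79 ± 0.11 in cerebellum (adjusted p = 0.0027), -0.32 ± 0.08 in medulla (0.0068) and -0.52 ± 0.06 in pons (0.00061). The others were Nrcam, a node adhesion protein (-0.45 ± 0.11, adjusted p = 0.0055), and Fgf13 (-0.45 ± 0.14, 0.034) in medulla, and Fgf12 in pons (-0.19 ± 0.05, 0.034).

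Of 24 calcium channel partners at the presynapse and in the membrane, 1 fell in cerebellum, 7 in medulla and 4 in pons, and 2 rose in pons. The shares of the list that fell are 4.17%, 29.2% and 16.7%, and 8.33% rose in pons. The counts in cerebellum and of those that rose in pons thus lie within about 1 gene of the shares over all genes. Stac, an adaptor that binds L-type channels, fell 2.37-fold in cerebellum (-1.25 ± 0.11, adjusted p = 0.00016) and 3.5-fold in medulla (-1.81 ± 0.29, adjusted p = 0.00016). Snap25, a SNARE protein of vesicle fusion, fell in medulla (-0.26 ± 0.05, 0.0011) and pons (-0.35 ± 0.06, 0.0049), as did Cabp1, a calcium sensor of these channels (-0.27 ± 0.05, 0.00033, and -0.38 ± 0.09, 0.028). Of 26 genes of calcium release, pumps, exchangers and buffers, 3 fell in cerebellum: the calcium pumps Atp2a3 (-0.87 ± 0.15, adjusted p = 0.0084) and Atp2a2 (-0.54 ± 0.10, 0.014) and the buffer Calb1 (-0.69 ± 0.14, 0.022). In medulla 4 of them fell and 3 rose, and in pons 4 fell and 1 rose. The buffer Calb2 fell in both (-0.95 ± 0.13, 2.8e-05, and -0.47 ± 0.06, 0.00081), and the store sensor Stim1 rose in both (0.19 ± 0.03, 6.3e-05, and 0.23 ± 0.05, 0.013).

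Of 8 genes of the sodium potassium ATPase and sodium exchangers, 0 changed in cerebellum, 4 fell in medulla and 5 in pons. With ASO against vehicle in medulla Atp1b2 rose (0.36 ± 0.05, adjusted p = 0.00036), beside 7 of 10 astrocyte markers that rose. Of 10 AMPA receptor subunits and auxiliaries, 0 changed in cerebellum, 5 fell in medulla and 4 in pons, among them Cnih3 (-1.34 ± 0.20, 9.2e-05), Gsg1l (-0.63 ± 0.11, 0.00034) and Gria1 (-0.33 ± 0.07, 0.00098) in medulla. In pons Gsg1l (-0.49 ± 0.07, 0.0013), Gria4 (-0.22 ± 0.04, 0.0024) and Gria3 (-0.22 ± 0.05, 0.012) fell. Of 4 genes of the sodium leak channel complex that were measured, 0 were called in any of these comparisons.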

How the data were processed

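The authors deposited raw counts per gene for 65 libraries of total RNA, prepared as stranded mRNA libraries per the labels' protocols. The submitters' processing notes name CASAVA 1.8, HISAT2 2.0.2, featureCounts of Subread, R 3.3.3, DESeq2 1.14.1 and the build GRCm38. No source used here says whether strand was used in counting. Among low counts (1 to 20), even numbers made up 70% to 78.6% by library, and counting error may exceed what the totals imply.

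Levels are CPM after trimmed-mean scaling over all libraries. Differences were tested from the counts with edgeR 4.0.16 (quasi-likelihood, robust, limma 3.58.1, R 4.3.3) after its filter on low counts, and p-values were adjusted by Benjamini and Hochberg over all genes tested. An adjusted p under 0.05 is a call. Shares of all genes are not given for an unadjusted p under 0.05, nor for every fit with DESeq2 or without libraries. Counts of members without such a share are a description, with no background to set them against. Each region and age had its own model of 3 groups, with batch as a term in medulla at 28 weeks. Tests of knockin vehicle against wild type were checked on simulated data in which some genes changed 1.5-fold and others more. At 18 weeks 45% of the 1.5-fold changes were called in cerebellum, 63% in medulla and 8% in pons. At 28 weeks 87% were called in medulla and 79% in pons. A count of 0 in pons at 18 weeks thus says little about changes of that size. The shares do not speak to smaller changes, such as all those called among members in medulla at 28 weeks. The simulated data held no shift of a whole library and no wrong label. DESeq2 1.42.0, other scaling, no filter, blocks, batches and left-out libraries were tried. The block by the number that ends the column names, and the fits without libraries low in Hox genes or with Atxn1 against the label, were chosen after seeing the data.

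Every member may be named. Values by library go to the called members of smallest adjusted p, up to 8 in each comparison, or to the 2 of smallest p where none was called, and in regional comparisons to the 3 largest differences in each direction. Up to 4 are named for differences of effects and up to 3 for each partner list. The fits without a library that are described gene by gene, the genes named from them and the sum of 4 members low in cerebellum were chosen after their values were seen. The members and lists were chosen with earlier results of these data known. Values of some genes are not reported here.

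Same-numbered wild type and knockin vehicle libraries of medulla at 18 weeks deviated together, with r of 0.17 to 0.33 over 3 pairs, and the block changed no call there. In no other pair of groups of 1 region did every pair exceed 0.1. Between regions, medulla and pons libraries of the ASO group at 18 weeks did so, at 0.2 to 0.47.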

Additional observations from a re-analysis of the deposited data

Results flagged for a closer look

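The called members of smallest adjusted p, up to 8 in each comparison, were read in each group of 4 to 8 libraries of their region and age. This gave 42 sets of values. Cacng8 and Cacna1e in medulla at 28 weeks were not among them. In 3 of these sets 1 library stood far from the rest. Chance alone marks about 1 in 20 such sets, so 3 of 42 is near that share. The sets share libraries and are not independent. Cacna1d was at 36.3 CPM in knockin vehicle replicate 1 of medulla at 28 weeks, above the rest of its group. Cacnb4 was at 134 CPM in knockin vehicle replicate 2 of the same group, below the rest. Scn4b was at 362 CPM in knockin ASO replicate 1 of pons at 28 weeks, above the other 3.

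The effect of the knockin differed between cerebellum at 18 weeks and medulla at 28 weeks for 3 members by a test of the difference itself. The difference of log2 effects was 1.75 for Scn3a, 1.36 for Scn3b and -0.27 for Cacng7.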

How the results depend on the processing

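Counts of members called are given here by setting, with the reported count first. For knockin vehicle against wild type in cerebellum the count of 4 became 2 without a filter on low counts, 9 with DESeq2, 1 with the replicate block and 14 with only those 2 groups, and ran from 1 to 14 without 1 library. In medulla at 28 weeks 11 became 7 without a filter, 1 in batch 1 alone and 7 without the libraries low in Hox genes, a setting chosen after seeing the data, and ran from 6 to 12 without 1 library. Cacnb4 changed sign in batch 1 alone (-0.0003). In pons at 28 weeks 3 became 8 with DESeq2 and ran from 1 to 11 without 1 library. For ASO against wild type, 0 in cerebellum became 3 with DESeq2 and ran from 0 to 2. In medulla at 28 weeks 2 became 4 with DESeq2 or with only the 2 groups, 0 with the replicate block, in batch 1 alone or without the libraries low in Hox genes, and 1 in batch 2 alone, and ran from 0 to 5. In pons at 28 weeks 0 became 2 with DESeq2 and 1 with only the 2 groups, and ran from 0 to 5. For ASO against vehicle in medulla at 28 weeks 0 became 1 in batch 2 alone. For pons against medulla 0 became 1 without a filter or with DESeq2 and 13 in libraries of 28 weeks, and ran from 0 to 4. For differences of the knockin effect, 3 between cerebellum and medulla became 6 with DESeq2 and 0 with the replicate block, and ran from 0 to 10. That block paired libraries of different ages and cannot decide these calls. Between cerebellum and pons 0 became 1 with DESeq2 and ran from 0 to 3, and between medulla and pons 0 ran from 0 to 1. The cause was not tested in any of these. DESeq2 called 6.36% of all genes in cerebellum and 21.7% in medulla and 14.7% in pons at 28 weeks for knockin vehicle against wild type, and 2.07%, 6.8% and 4.95% for ASO against wild type. Without ASO replicate 3 in cerebellum, 6.24% of all genes were higher and 7.91% lower in knockin vehicle, against 0.654% and 2.06% with all libraries. Where no share is given, a count by setting does not tell members from genes at large.

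In all, 35 called differences were followed gene by gene, 12 of them between regions. Of these, 35 kept direction and call with DESeq2, 34 with its size factors and 28 without a filter. With the replicate block 24 did, and it lost 11 calls and reversed none. Other calls between regions were not followed gene by gene. Of 608 values without 1 library, 489 kept both, 119 lost the call and 0 reversed. Groups of 3 or 4 libraries limit the precision, and levels near 1 CPM rest on few reads.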
